A study of Mus musculus with 18 samples.

Results

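The genes described here encode the nuclear part of the mitochondrial respiratory chain and of ATP synthase. They were chosen by symbol, as genes whose names begin with Nduf followed by a, b, c, s or v, with Uqcr, with Cox and a digit from 4 to 8, or with Atp5, together with Sdha, Sdhb, Sdhc and Sdhd. Of 23365 genes in the count table, 92 carried such a symbol, 87 of these had at least 10 counts in at least 3 libraries, and 86 entered the test beside 13405 genes in all. By complex, the tested genes were 7 core, 28 accessory and 7 assembly genes of complex I, 4 of complex II, 8 of complex III, 12 of complex IV, 3 tissue isoforms of complex IV and 15 of complex V. The remaining 2, Atp5s and Atp5sl, match by name but encode no structural subunit. Cox4i2 had enough counts for the rule but not for the test. Ndufs5, Cox7b2, Cox8b, Cox8c and Ndufa4l2 fell short of the rule, with 4, 5, 2, 3 and 58 counts summed over the 18 libraries. Ndufs5 encodes a widely expressed subunit of complex I, unlike the tissue isoforms beside it, and its 4 counts are not read here as a lack of expression.

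RNA was sequenced from spleen erythroblasts, the nucleated precursors of red cells, sorted by the transferrin receptor CD71 and the erythroid antigen TER119. The mice carried 3 alleles of Klf1, which encodes an erythroid zinc finger transcription factor: wild type (WT), a knockout (KO) and D45, the MommeD45 missense allele, which the series title places in the linker-2 of the protein. There were 4 libraries of D45/KO, a compound heterozygote without a wild-type allele, 3 of D45/D45, also without one, 3 of WT/D45, 5 of WT/KO and 3 of WT/WT, and the replicates are described as biological ones. The series design describes anaemia and an enlarged spleen in compound heterozygotes, so in D45/KO the alleles and the anaemia cannot be told apart. Strain, age, the lesion of the KO allele and the erythroblast stages inside the sort gate are not stated in the sources used here.

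Complexes I and II pass electrons from NADH and succinate to ubiquinone, complex III passes them to cytochrome c, and complex IV passes them to oxygen. Complexes I, III and IV pump protons across the inner membrane, and complex V (ATP synthase) uses the gradient to make ATP. Erythroblasts rely on mitochondria while they make haem and divide, and lose them as they mature into red cells. Some subunits of complex IV have isoforms that are known as specific to one tissue, among them Cox6b2, known as the testis form of subunit 6b, whose widely expressed form is Cox6b1.

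The isoform pair Cox6b2 and Cox6b1 is the pair whose levels are followed most closely here, so the 250 bases before the start of each gene are shown, from RefSeq on GRCm38.p6, minus strand. Both genes lie on chromosome 7, Cox6b2 with its stretch at chr7:4753095-4753344 and Cox6b1 at chr7:30626115-30626364. Capitals mark the 1 match in each stretch, read on the opposite strand, to the letters CCACACCC, CCACGCCC, CCCCACCC or CCCCGCCC, which are forms of the CACCC-type element that KLF1 is known to bind. The match begins 193 bases before the start of Cox6b2 and 113 bases before that of Cox6b1.
Cox6b2: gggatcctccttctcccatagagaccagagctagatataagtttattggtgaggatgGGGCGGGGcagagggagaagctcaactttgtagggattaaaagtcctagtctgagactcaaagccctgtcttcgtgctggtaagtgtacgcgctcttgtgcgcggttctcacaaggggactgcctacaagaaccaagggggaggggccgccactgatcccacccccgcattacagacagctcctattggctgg
Cox6b1: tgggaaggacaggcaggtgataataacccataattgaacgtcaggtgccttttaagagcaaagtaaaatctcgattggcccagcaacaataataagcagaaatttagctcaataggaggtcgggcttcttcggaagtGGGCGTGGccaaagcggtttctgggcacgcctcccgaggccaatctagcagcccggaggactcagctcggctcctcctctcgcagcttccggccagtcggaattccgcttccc
Such a match stood in 34 of 79 promoter stretches of the tested genes (43.0%, from 73 genes found in the RefSeq table) and in 27.4% of 32851 stretches of the same length, on either strand. The letters CCGGAAG, an ETS-type element, stood in 16.5% and 6.91%, and a palindromic element known to bind NRF1, a regulator of respiratory chain genes, in 17.7% and 3.74%. These matches are a description of letters and not evidence of binding.

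Total counts ran from 9360455 to 56323588 per library, and genes matched by symbol took 0.359% to 0.972% of them. Levels are given in CPM, counts per 1000000 of a library total adjusted by TMM, a scaling that sets the bulk of genes equal between libraries. A gene was called where edgeR's quasi-likelihood test gave an adjusted p under 0.05 (Benjamini-Hochberg) over all 13405 genes, and an error beside a log2 fold change is an approximate SE. Transcripts of B cells divided the libraries: the mean log2 CPM of 13 B cell markers was 4.12 to 7.53 in 9 libraries and -1.75 to 0.15 in the other 9. The 9 high libraries were 3 of D45/KO, 1 of D45/D45, 1 of WT/D45, 3 of WT/KO and 1 of WT/WT, and they hold all 7 mice with an identifier under 200, which the labels do not call a batch. Defining markers such as Cd79a and Ms4a1 were at or near 0 in the low libraries (0 to 2.22 and 0 to 1.92 CPM) and at 22.004 to 219 and 21.7 to 258.7 CPM in the high ones. The 13 markers together summed to 28.2 to 239 CPM in the low libraries and 455 to 4232 CPM in the high ones. For 12 of the 13, every high library lay above every low library. In such bulk samples, fewer cells of a type and less RNA per cell cannot be told apart.

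By level, complex V took the largest share of these transcripts, and Atp5s and Atp5sl the smallest, below the assembly genes, in all 5 genotypes. Atp5b, the catalytic beta subunit, averaged 1069 CPM over the 18 libraries, or 558 CPM per kb of transcript, the highest per-length level among the tested genes. Per kb, the median gene of complex V stood at 123 CPM, of complex IV at 132, of complex III at 75.1, of complex II at 29.3, and of the core and accessory genes of complex I at 34.0 and 34.6. Assembly factors of complex I, which help build the enzyme without staying in it, had a median of 3.48 CPM per kb. Averaged over the 18 libraries, Cox6b2 had rank 3 of the 86 at 383 CPM per kb (189 CPM). That mean lay above Cox6a1 at 365 and Cox4i1 at 344, the highest common subunits of complex IV. It also lay above its paralogue Cox6b1 at 159.5 CPM per kb. In WT/WT, Cox6b2 was at 154 CPM per kb, below Cox6a1 at 483, Cox4i1 at 403 and Cox6b1 at 172. Cox6b2 was also below Cox6a1 and Cox4i1 in WT/D45 and WT/KO, and above both in D45/KO and D45/D45.

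**Figure D1:**
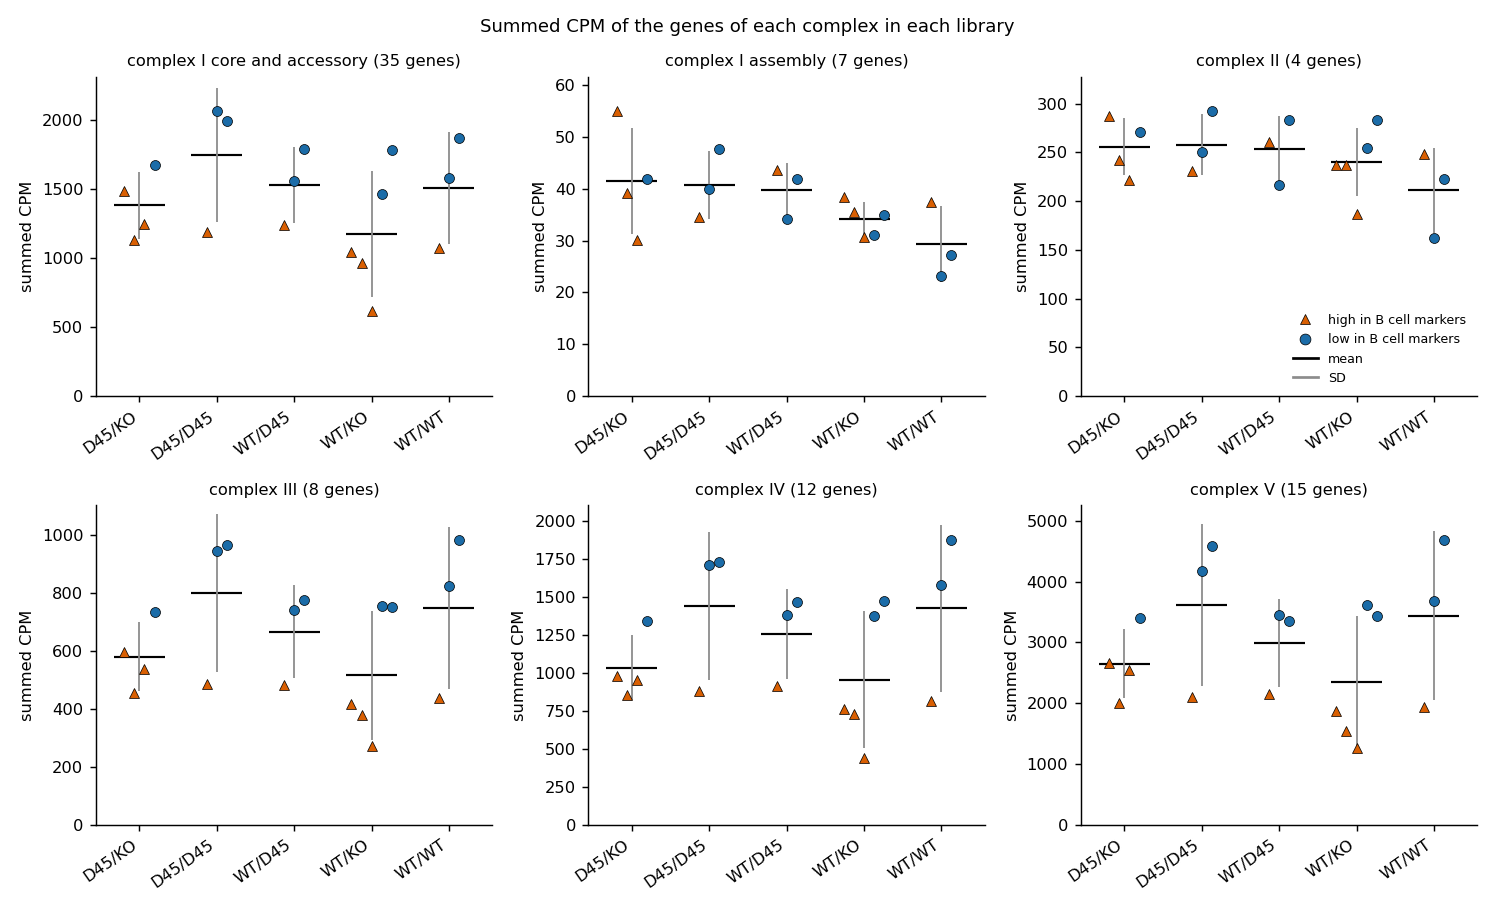
Summed CPM of the genes of each complex (vertical axes, from 0) in each library of the 5 genotypes (horizontal axes), with group means as black bars and SD as grey lines. Orange triangles are the 9 libraries high in B cell markers and blue circles the 9 low ones. In complexes III, IV and V every triangle lies below every circle with this TMM scaling, while complex II overlaps.

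Summed levels of each complex overlapped between all 5 genotypes. Complex I core and accessory genes summed to 1383 ± 241.3 CPM in D45/KO (SD, n = 4), 1748 ± 486 in D45/D45 (n = 3), 1528 ± 274 in WT/D45 (n = 3), 1173 ± 455 in WT/KO (n = 5) and 1507 ± 404 CPM in WT/WT (n = 3). Complex II summed to 255 ± 29.2 CPM in D45/KO, 258 ± 31.3 in D45/D45, 253 ± 34.2 in WT/D45, 239.8 ± 34.99 in WT/KO and 211 ± 44.0 CPM in WT/WT. For complex IV, without its tissue isoforms, the sums were 1035 ± 213 CPM in D45/KO, 1442 ± 486 in D45/D45, 1257 ± 298 in WT/D45, 956 ± 449 in WT/KO and 1425 ± 549 CPM in WT/WT. Inside each genotype the libraries high in B cell markers had the lower sums of complexes III, IV and V, as the plot of summed CPM by complex shows.

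No gene of the set was called in any of the 6 comparisons by edgeR, limma-voom or DESeq2. The background was also low, at 23 of 13405 genes (0.172%) in D45/KO against WT/KO, 83 (0.619%) in D45/KO against WT/WT, 1 (0.00746%) in D45/KO against D45/D45 and 0 in each of D45/D45, WT/D45 and WT/KO against WT/WT. At an unadjusted p under 0.05, edgeR had 4 of the 86 in D45/KO against WT/KO (5.41% of all genes), 6 in D45/KO against WT/WT (8.93%), 0 in D45/KO against D45/D45 (2.26%), 4 in D45/D45 against WT/WT (4.07%), 0 in WT/D45 against WT/WT (1.45%) and 3 in WT/KO against WT/WT (4.27%). These counts amount to shares near or below the background. The test for any difference among the 5 genotypes called 45 genes (0.336%) and none of the set, with Ndufs3 and Cox6b2 the 2 members at an unadjusted p under 0.05 (4.8% of all genes). DESeq2 called 1 member, Ndufs3, in that test (adjusted p = 0.0472, with 2.45% of all genes called), and limma-voom called 0. For whether the D45 effect differed with the other Klf1 allele (an interaction term), edgeR called 1 gene of all (0.00746%), no member, and no member had an unadjusted p under 0.05 (2.45% of all genes).

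**Figure D2:**
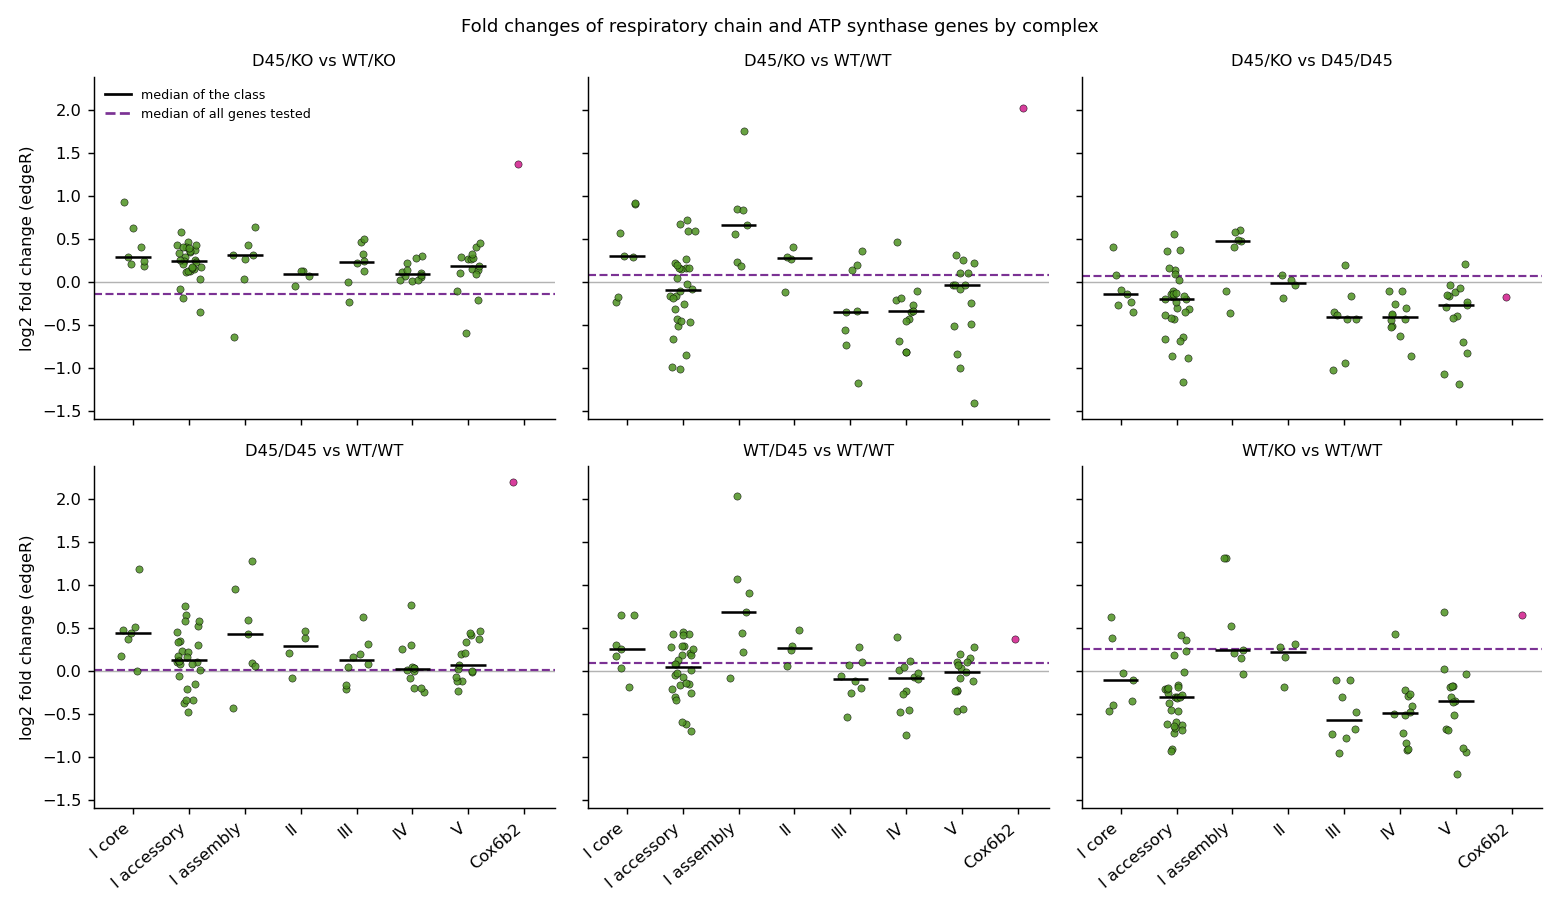
Log2 fold change (vertical axis, edgeR) of each tested gene by complex (horizontal axis) in 6 comparisons, with Cox6b2 on its own and the tissue isoforms Cox6a2 and Cox7a1 and the symbol matches Atp5s and Atp5sl not drawn. Black bars are medians of a complex and the dashed line is the median of all genes tested. Values use TMM, and with library totals most points lie above 0 in all 6 comparisons. In D45/KO against WT/KO, 73 of the 86 tested genes are above 0, and Cox6b2 stands apart at 1.37, as it does at 2.02 in D45/KO and at 2.20 in D45/D45 against WT/WT.

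D45/KO against WT/KO asks what the D45 allele does beside a null allele. The 86 genes had a median log2 fold change of 0.21, with 73 above 0, beside a median of -0.15 and 40.8% above 0 over all genes. Scaling moved both medians, and the difference between them was 0.35 with TMM, 0.40 with DESeq2 size factors and 0.47 with library totals. Markers of other cells differed in the same comparison. All 13 B cell markers (median log2 fold change -1.82) and all 7 T and NK cell markers (median -1.79) were below 0, while 5 of 7 neutrophil markers were above 0 (median 1.71), none called, and their part in the result was not tested. Within the 9 high libraries (3 of D45/KO and 3 of WT/KO) the members' median was 0.52, beside -0.10 for all genes. Their mean log2 CPM of B cell markers was still lower in D45/KO, at 4.56, 6.20 and 4.12, than in WT/KO, at 7.40, 7.24 and 7.53. Among the low libraries, the members summed to 7918 CPM in D45/KO replicate 4, against 7727 and 8013 CPM in WT/KO replicates 4 and 5.

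Among complex I core genes, all 7 were above 0 in D45/KO against WT/KO, with log2 fold changes of up to 0.93, and all 7 were also above 0 with DESeq2 size factors and with library totals. None was called. Ndufs3, a core subunit of the arm that projects into the matrix, was at 46.7, 37.6, 37.2 and 56.9 CPM in D45/KO, against 27.1, 20.8, 11.53, 25.8 and 31.7 CPM in WT/KO. The lowest D45/KO library lay above the highest WT/KO library, a separation found for 3 of the 86 genes in this direction (Ndufs3, Ndufb6 and Cox6b2) and for 1.78% of all genes, while none lay below (0.925%). The log2 fold change of Ndufs3 was 0.93 ± 0.31 (unadjusted p = 0.0086, edgeR adjusted p = 0.547). In the GRCm38 annotation, which is not the build of the counts, exons of 24 of the 86 tested genes overlap those of another gene, by 85 bases for Ndufs3 (Kbtbd4), 257 of 659 for Ndufb6 (Smim27), 504 for Uqcrc2 (Pdzd9), 146 for Ndufs1 (Ino80dos) and 70 for Cox6a2 (Itgad). The strand setting of the counting is not known here, so reads of such pairs may not be told apart.

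Ndufs1, the iron-sulphur subunit beside the NADH-oxidising site, was at 106, 77.6, 88.2 and 119.9 CPM in D45/KO, against 53.6, 45.2, 29.2, 91.4 and 97.3 CPM in WT/KO. The groups overlapped, since both WT/KO libraries low in B cell markers reached the D45/KO range. Its log2 fold change of 0.63 ± 0.32 had an edgeR adjusted p of 0.927, and after adjustment for the level of B cell markers it was 0.66 ± 0.17 and called (edgeR adjusted p = 0.0429). That fit called 2 of the 86 members (2.33%), Ndufs1 and Cox6b2, and 359 of all 13405 genes (2.68%).

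**Figure D3:**
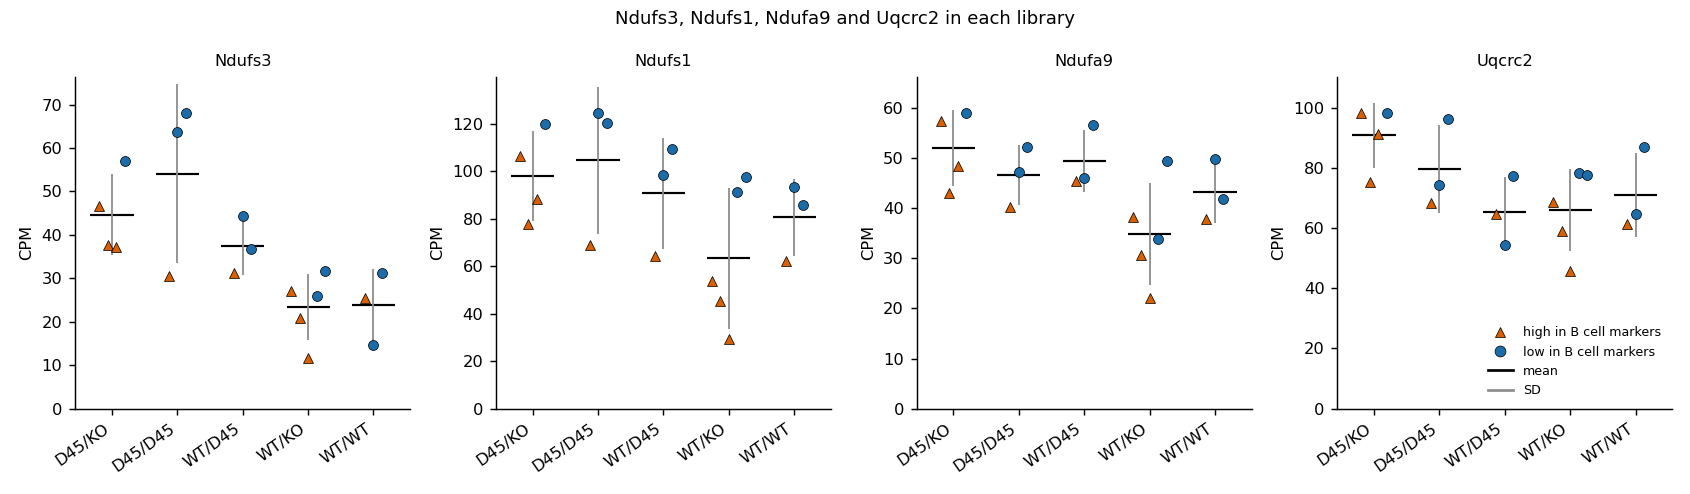
CPM (vertical axes, from 0) of Ndufs3, Ndufs1, Ndufa9 and Uqcrc2 in each library by genotype, with group means as black bars and SD as grey lines, and libraries high (triangles) and low (circles) in B cell markers. For Ndufs3 the 4 D45/KO libraries, at 37.2 CPM and above, lie over all 5 WT/KO libraries, which end at 31.7 CPM.

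Of the 28 accessory genes of complex I, 25 were above 0 in D45/KO against WT/KO, from -0.35 to 0.58, as were 24 with DESeq2 size factors and 25 with library totals. Ndufa9, which sits where the 2 arms of the enzyme meet, was at 57.3, 43.1, 48.4 and 59.1 CPM in D45/KO, against 38.3, 30.7, 22.02, 33.8 and 49.5 CPM in WT/KO (0.58 ± 0.22, unadjusted p = 0.018, edgeR adjusted p = 0.725). Only the highest WT/KO library overlapped D45/KO. Ndufb9, an accessory subunit of the membrane arm, was lowest of its class at -0.35 ± 0.54, with 98.3 ± 33.1 CPM in D45/KO, against 125 ± 92.4 in WT/KO. Among the 7 assembly genes, 6 were above 0, and 5 were with either other scaling. They ran from Ndufaf1, a factor for the membrane arm, with 10.6 ± 4.04 CPM in D45/KO, against 6.80 ± 2.72 in WT/KO (0.64 ± 0.47), to Ndufaf5, which modifies an arginine of Ndufs7, with 1.56 ± 0.670 CPM in D45/KO, against 2.46 ± 1.91 in WT/KO (-0.65 ± 0.997).

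The 4 genes of complex II, which is also an enzyme of the citric acid cycle, lay between -0.05 and 0.12, with 3 above 0, against 1 with DESeq2 size factors and 2 with library totals. Sdha, the flavoprotein that oxidises succinate, was at 155, 125, 143 and 161 CPM in D45/KO, against 125, 118, 112, 143 and 172 CPM in WT/KO, and the ranges overlapped. Sdhb, its iron-sulphur partner, averaged 32.7 ± 6.44 CPM in D45/KO, against 33.8 ± 9.83 in WT/KO. Sdhc and Sdhd, the membrane anchors, averaged 38.5 ± 7.53 and 38.2 ± 9.31 CPM in D45/KO, against 36.7 ± 8.43 and 35.2 ± 6.18 CPM in WT/KO.

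In complex III, 6 of 8 genes were above 0 (-0.23 to 0.49), as were 6 with DESeq2 size factors and 8 with library totals. Uqcrc2, a core protein of the matrix side, was at 98.3, 75.4, 91.1 and 98.1 CPM in D45/KO, against 68.6, 59.0, 45.9, 78.1 and 77.8 CPM in WT/KO (0.46 ± 0.21, unadjusted p = 0.039, edgeR adjusted p = 0.865). The lowest D45/KO library fell inside the WT/KO range and the other 3 lay above it. Uqcrfs1, the Rieske iron-sulphur protein, averaged 76.7 ± 18.1 CPM in D45/KO, against 54.5 ± 27.9 in WT/KO (0.49 ± 0.34), while Uqcrh, the hinge protein, averaged 117 ± 32.8 CPM in D45/KO, against 137 ± 102 in WT/KO (-0.23 ± 0.55).

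All 12 complex IV genes outside the tissue isoforms lay just above 0 (0.01 to 0.30) with TMM, against 8 with DESeq2 size factors and 11 with library totals. Cox6c, a small subunit, averaged 82.0 ± 21.2 CPM in D45/KO, against 81.3 ± 42.1 in WT/KO, and Cox6b1 averaged 91.4 ± 24.3 CPM in D45/KO, against 74.2 ± 38.2 in WT/KO. In complex V, 12 of 15 were above 0 (-0.59 to 0.45), as were 12 with DESeq2 size factors and 13 with library totals. Atp5d, the delta subunit of the central stalk, averaged 117 ± 33.5 CPM in D45/KO, against 85.7 ± 40.4 in WT/KO (0.45 ± 0.33). Atp5g2, a gene for the proton-carrying subunit c, averaged 13.03 ± 2.96 CPM in D45/KO, against 19.6 ± 14.3 in WT/KO (-0.59 ± 0.67). None of these was called.

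Cox6b2 had the highest log2 fold change of the 86 genes in D45/KO against WT/KO and in D45/D45 against WT/WT. It was at 258, 248, 279 and 449.6 CPM in D45/KO, against 50.001, 80.4, 15.8, 212 and 240.9 CPM in WT/KO. In D45/D45 it was at 139.7, 454 and 457 CPM, in WT/D45 at 49.9, 127 and 118 CPM and in WT/WT at 41.1, 52.1 and 136 CPM. All 7 libraries without a wild-type allele lay above all 6 libraries of WT/D45 and WT/WT, while both WT/KO libraries low in B cell markers reached the D45/D45 range. Cox6b2 was named in every comparison after its values had been seen.

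The log2 fold change of Cox6b2 was 1.37 ± 0.62 in D45/KO against WT/KO (unadjusted p = 0.042, edgeR adjusted p = 0.881), 2.02 ± 0.75 in D45/KO against WT/WT (unadjusted p = 0.016, edgeR adjusted p = 0.378) and 2.20 ± 0.79 in D45/D45 against WT/WT (unadjusted p = 0.013, edgeR adjusted p = 1). It was -0.18 ± 0.70 in D45/KO against D45/D45, 0.37 ± 0.76 in WT/D45 against WT/WT and 0.65 ± 0.69 in WT/KO against WT/WT. These comparisons share libraries, and 4 of the 6 share WT/WT, so they are not independent. With TMM, Cox6b2 was lower in the libraries high in B cell markers of each genotype, at 15.8 to 279 CPM in the 9 high libraries and 52.1 to 457 CPM in the 9 low ones. After adjustment for the level of B cell markers its log2 fold change was 1.60 ± 0.35 in D45/KO against WT/KO (edgeR adjusted p = 0.0146) and 2.35 ± 0.43 in D45/KO against WT/WT (edgeR adjusted p = 0.0026), both called. In the second comparison it was the 1 member called by that fit, beside 4.18% of all genes. In D45/D45 against WT/WT that fit called 47 of all genes and no member, so Cox6b2 was not called there. No member was called by that fit in the remaining comparisons either.

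Within the libraries of one kind, a comparison often rests on a single library of a genotype, which is then assumed to vary like the others. The high libraries still differed in mean log2 CPM of B cell markers, at 4.12 to 6.20 in D45/KO, 7.24 to 7.53 in WT/KO and 6.60 in WT/WT. Genotype and B cell marker level thus cannot be told apart in comparisons of D45/KO among them. In D45/KO against WT/KO, the log2 fold change of Cox6b2 was 2.46 ± 0.48 among the 9 high libraries, with 3 of each genotype (edgeR adjusted p = 0.0182, with 7.55% of all genes called). Among the 9 low ones, with 1 D45/KO library and 2 of WT/KO, it was 1.03 ± 0.36 (edgeR adjusted p = 0.562). In D45/D45 against WT/WT it was 2.25 ± 0.32 among the low libraries, with 2 of each genotype (edgeR adjusted p = 0.00072, with 1.36% of all genes called), and 1.71 ± 0.81 among the high ones, with 1 of each (edgeR adjusted p = 1). In D45/KO against WT/WT it was 2.28 ± 0.36 among the low libraries (edgeR adjusted p = 0.00101, with 2.35% of all genes called) and 2.62 ± 0.77 among the high ones (edgeR adjusted p = 0.418). The low value rests on D45/KO replicate 4, the D45/KO library with the highest Cox6b2, and the high value on 1 WT/WT library. These 6 values come from 2 sets of libraries, and comparisons within a set share libraries, so the values are not independent. The gene and the sets were chosen after the values were seen, so the calls are a description.

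The ratio of Cox6b2 to Cox6b1 counts, which does not depend on how libraries are scaled, was also given per library. It was 2.70, 3.48, 3.74 and 3.63 in D45/KO, and 1.93, 2.63 and 3.14 in D45/D45. It was 0.612, 1.04 and 0.943 in WT/D45, 0.726, 1.5004, 0.648, 1.98 and 2.05 in WT/KO, and 0.593, 0.476 and 0.973 in WT/WT. By counts, Cox6b2 outnumbered its paralogue in all 7 libraries without a wild-type allele, in 3 of 5 WT/KO libraries, in 1 of 3 WT/D45 libraries and in none of the WT/WT libraries. Per kb of transcript, which takes the shorter Cox6b2 into account, it was ahead in the same 7 libraries, in 3 of 5 of WT/KO, in 2 of 3 of WT/D45 and in 1 of 3 of WT/WT. The ratio had a median of 1.5004 in the 9 libraries high in B cell markers and 1.98 in the 9 low ones, which mixes genotypes. In WT/KO it was 0.726, 1.5004 and 0.648 in the high libraries, against 1.98 and 2.05 in the low ones. The high library was also lower in D45/D45 (1.93 against 2.63 and 3.14) and in WT/D45 (0.612 against 1.04 and 0.943). High and low libraries overlapped in D45/KO and WT/WT. The ratio was chosen after the values were seen and is given without a test.

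**Figure D4:**
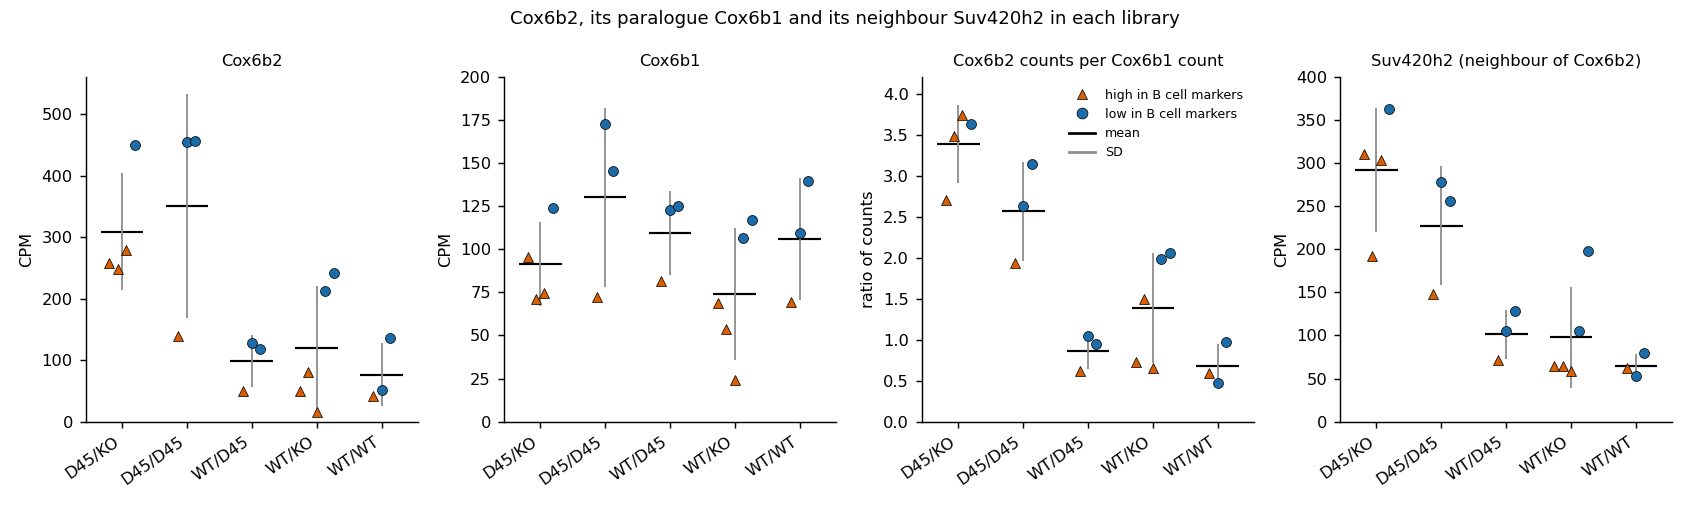
CPM of Cox6b2, Cox6b1 and Suv420h2 and the ratio of Cox6b2 to Cox6b1 counts (vertical axes, from 0) in each library by genotype, with means as black bars and SD as grey lines, and libraries high (triangles) and low (circles) in B cell markers. Cox6b1 overlaps between all genotypes, while the ratio is 1.93 or more in D45/KO and D45/D45 and 1.04 or less in WT/D45 and WT/WT. In WT/KO the ratio runs from 0.648 to 2.05 and overlaps D45/D45.

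A neighbour of Cox6b2 was also higher in D45/KO. Suv420h2, which encodes a methyltransferase for lysine 20 of histone H4, is transcribed towards Cox6b2 from the other strand and ends 4277 bases from it in the GRCm38 annotation. It was at 310.3, 192, 303 and 363 CPM in D45/KO, 149, 278 and 255.8 CPM in D45/D45, 71.6, 105 and 128 CPM in WT/D45, 64.4, 64.8, 58.4, 105 and 198 CPM in WT/KO, and 61.7, 53.1 and 79.2 CPM in WT/WT. It rose in D45/KO against WT/WT (log2 fold change 2.18 ± 0.43, edgeR adjusted p = 0.0307), with every D45/KO library above every WT/WT library, and that call was lost without any 1 of D45/KO replicates 1, 3 and 4 or of the 3 WT/WT libraries. Its log2 fold change was 1.58 ± 0.36 in D45/KO against WT/KO (edgeR adjusted p = 0.122) and 1.81 ± 0.44 in D45/D45 against WT/WT (edgeR adjusted p = 0.402). The closest gene, Fam71e2, 131 bases from Cox6b2 on the same strand, had at most 9 counts in any library, and no exon of another gene overlaps Cox6b2. Suv420h2 was looked at after the values of Cox6b2 had been seen.

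The other tissue isoforms were near 0. Cox6a2, the heart and skeletal muscle form of subunit 6a, had 108 counts over the 4 D45/KO libraries, 88 of them in D45/KO replicate 2, and 193 over the 5 WT/KO libraries, 131 of them in 1 library, against 2 counts over the 3 WT/WT libraries. The pooled rates were 22.2 times (95% interval 5.99 to 185) and 28.7 times (7.83 to 238) that of WT/WT, with exact intervals that cover counting error only. Counts were higher in the libraries high in B cell markers, at 15, 88 and 3 in those of D45/KO against 2 in the low one, and at 42, 131 and 12 in those of WT/KO against 2 and 6 in the low ones. WT/WT, with 1 high library of 3, had 2, 0 and 0 counts, and the part of the B cell split in these rates was not tested. Its unadjusted p was under 0.05 in both comparisons, with edgeR adjusted p-values of 0.403 and 0.818. Cox7a1, a muscle form of subunit 7a, had 12 counts in D45/KO, 18 in D45/D45, 27 in WT/D45, 91 in WT/KO and 8 in WT/WT.

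D45/KO against WT/WT sets the compound heterozygote beside wild type. The 86 genes had a median log2 fold change of -0.04, with 40 above 0, beside 0.07 and 54.2% above 0 over all genes, and 7 of them (Ndufs3, Ndufs8, Ndufa10, Ndufa12, Ndufb6, Cox6a2 and Cox6b2) had all D45/KO libraries above all WT/WT libraries (6.69% of all genes) and none below (3.55%). With TMM, 11 of 12 complex IV genes and 10 of 15 complex V genes were below 0, but with library totals 10 of 12 and 12 of 15 were above. All 7 assembly genes of complex I were above 0 with each scaling. With library totals the members' median was 0.42, beside 0.37 over all genes. Macrophage markers were above 0 for 6 of 7 genes in the same comparison (median log2 fold change 1.55), neutrophil markers below 0 for all 7 (median -1.34) and erythroblast markers below 0 for 6 of 7 (median -0.51). Of these and of the B, T and NK cell markers, Lck, a T cell kinase, was the 1 called, and it fell (-1.43 ± 0.31, edgeR adjusted p = 0.0454). Their part in the result was not tested.

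Ndufs8, an iron-sulphur subunit of complex I, was at 34.8, 34.5, 23.6 and 27.7 CPM in D45/KO, against 21.2, 7.92 and 18.6 CPM in WT/WT (0.92 ± 0.39, edgeR adjusted p = 0.467). Ndufs3 was at 25.5, 14.7 and 31.1 CPM in WT/WT, below the 4 D45/KO libraries given above (0.91 ± 0.37, edgeR adjusted p = 0.441). Ndufa10, an accessory subunit related to nucleoside kinases, was at 50.8, 36.4, 34.8 and 40.3 CPM in D45/KO, against 33.6, 16.2 and 24.2 CPM in WT/WT (0.72 ± 0.30, edgeR adjusted p = 0.462). These 3 genes lay higher in every D45/KO library than in any WT/WT library. In the other direction, Ndufa7, an accessory subunit of the matrix arm, was at 27.1, 24.1, 26.6 and 34.3 CPM in D45/KO, against 22.3, 63.0 and 84.7 CPM in WT/WT (-1.01 ± 0.47, edgeR adjusted p = 0.538). Its WT/WT library high in B cell markers lay below all 4 D45/KO libraries.

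The lowest of their classes in D45/KO against WT/WT included Ndufs7 (-0.23 ± 0.33) of the complex I core, Uqcrh (-1.18 ± 0.62) and Cox6c (-0.82 ± 0.47). Atp5l (-1.42 ± 0.76), which encodes subunit g of ATP synthase, was also among them. The highest of their classes included Ndufaf6, an assembly factor of complex I (1.75 ± 1.39), and Uqcrc2 (0.36 ± 0.24). Cox7a2l, a factor for respiratory supercomplexes (0.46 ± 0.27), and Atp5j, coupling factor 6 (0.31 ± 0.39), were also among these. None had an unadjusted p under 0.05. Ndufaf6 was at 1.71, 0.713, 0.696 and 1.04 CPM in D45/KO, but 0.846, 0 and 0 CPM in WT/WT, so its fold change rests on few counts.

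D45/D45 against WT/WT asks the same of 2 missense copies. The members' median log2 fold change was 0.15, with 65 of 86 above 0, beside 0.01 and 50.8% over all genes. With DESeq2 size factors the median was 0.02, with 45 above 0, beside -0.10 and 43.4% over all genes, and with library totals 0.20, with 72 above 0, beside -0.01 and 49.2%. All 7 macrophage markers (median -1.06), all 7 neutrophil markers (median -1.86) and all 13 B cell markers (median -0.49) were below 0, none called, and their part in the result was not tested. With TMM, 4 of 86 (Ndufb6, Ndufaf1, Cox7a2l and Cox6b2) had ranges apart upward (7.38% of all genes) and none downward (3.65%). Ndufs3 was at 30.4, 63.7 and 68.1 CPM in D45/D45 (1.19 ± 0.39, edgeR adjusted p = 1), and its library high in B cell markers lay inside the WT/WT range. Ndufb6, of the membrane arm of complex I, was at 18.7, 21.7 and 24.9 CPM in D45/D45, against 12.8, 12.04 and 13.8 CPM in WT/WT (0.76 ± 0.30, edgeR adjusted p = 1), with the exon overlap given above. Cox7a2l was at 46.1, 60.8 and 60.3 CPM in D45/D45, against 39.2, 25.1 and 34.0 CPM in WT/WT (0.76 ± 0.29, edgeR adjusted p = 1). For both genes every D45/D45 library lay above every WT/WT library. Among the 9 low libraries, with 2 of each genotype, Ndufs3 was called (1.49 ± 0.33, edgeR adjusted p = 0.0264), 1 of 2 members called beside 1.36% of all genes.

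In WT/D45 against WT/WT, with 1 missense copy beside a wild-type allele, the members' median was 0.06, with 48 above 0, beside 0.10 and 58.4% over all genes. It was -0.02, with 42 above 0, with DESeq2 size factors and 0.43, with 83 above 0, with library totals, and the gap to the median of all genes was -0.04 with TMM, -0.06 with DESeq2 size factors and 0.11 with library totals. All 7 macrophage markers (median -0.95) and all 7 neutrophil markers (median -1.07) were below 0, none called, and their part in the result was not tested. Ndufs3, Sdhb and Cox7a2l had ranges apart upward (2.86% of all genes) and none downward (1.19%). In D45/KO against D45/D45, which sets 1 missense copy beside 2, the median was -0.23, with 20 of 86 above 0, beside 0.06 and 54.1% over all genes. It was 0.28 with library totals, when the median of all genes was 0.37, and 0.13 within the 9 high libraries, which hold 1 D45/D45 library. All 12 complex IV genes and 14 of 15 complex V genes were below 0 in that comparison with TMM, while 9 of 12 and 11 of 15 were above 0 with library totals. Erythroblast markers were below 0 for all 7 genes (median -0.66) and macrophage markers above 0 for all 7 (median 2.64) in D45/KO against D45/D45 with TMM, and their part in the result was not tested. Ndufa12 had ranges apart upward (2.48% of all genes) and Atp5s downward (2.29%).

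WT/KO against WT/WT, the loss of 1 copy, had the members' lowest median at -0.29, with 22 of 86 above 0, beside 0.26 and 62.2% over all genes. The gap between the members and all genes was -0.55 with TMM, -0.60 with DESeq2 size factors and -0.45 with library totals, where the members' own median turned to 0.19. All 8 complex III genes and 11 of 12 complex IV genes were below 0 with TMM, while 4 of 8 and 8 of 12 were above 0 with library totals. Ndufa5, an accessory subunit of complex I, was at 11.0, 9.78, 11.7, 20.0 and 16.3 CPM in WT/KO, against 12.4, 37.2 and 27.7 CPM in WT/WT (-0.91 ± 0.40, edgeR adjusted p = 0.818). Atp5e, the epsilon subunit of ATP synthase, was at 63.0, 61.7, 33.2, 110.1 and 104 CPM in WT/KO, against 66.7, 196 and 166.3 CPM in WT/WT (-0.94 ± 0.42, edgeR adjusted p = 0.818). Both ranges overlapped, through the WT/WT library high in B cell markers. With TMM, all 13 B cell markers (median log2 fold change 1.49), all 7 macrophage markers (median 1.55) and 6 of 7 T and NK cell markers (median 1.77) were above 0. All 7 erythroblast markers (median -0.68) and all 7 neutrophil markers (median -3.13) were below 0, none of these markers was called, and their part in the result was not tested. Ndufb6 and Cox6a2 had ranges apart upward (0.985% of all genes) and none downward (0.627%).

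Levels of the set also differed between the libraries high and low in B cell markers. With TMM, the median of the 9 high libraries minus that of the 9 low ones was -0.54 (log2 CPM) for the median member and 0.23 over all genes. With DESeq2 size factors these were -0.33 and 0.42, and with library totals 0.79 and 1.48, so the sign for the members turned with the scaling while the gap to all genes stayed between -0.77 and -0.69. Erythroblast markers were also lower in the high libraries, with all 7 below 0 and a median of -1.79 with TMM. The split follows markers measured in the same libraries, so it is a description and carries no test.

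With TMM, 20 of 86 members had every high library below every low library (6.06% of all genes), and 1, Atp5sl, had the reverse (6.36%). With library totals these counts were 0 (0.119%) and 6 (21.8%). The 20 were 7 of 12 complex IV genes, 4 of 8 complex III genes, 5 of 15 complex V genes and 4 of 28 accessory genes of complex I, with none from the core, the assembly genes or complex II. Atp5l was at 22.4 to 109 CPM in the high libraries (median 65.5), against 143 to 429 CPM in the low ones (median 271). Uqcrh was at 39.1 to 108 CPM (median 90.7) and 165 to 405 CPM (median 282), and Cox4i1, the most abundant complex IV gene by CPM, at 126 to 225 (median 189) and 286 to 386 CPM (median 340.3). The ranges of high and low libraries did not overlap for these 3 genes with TMM.

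**Figure D5:**
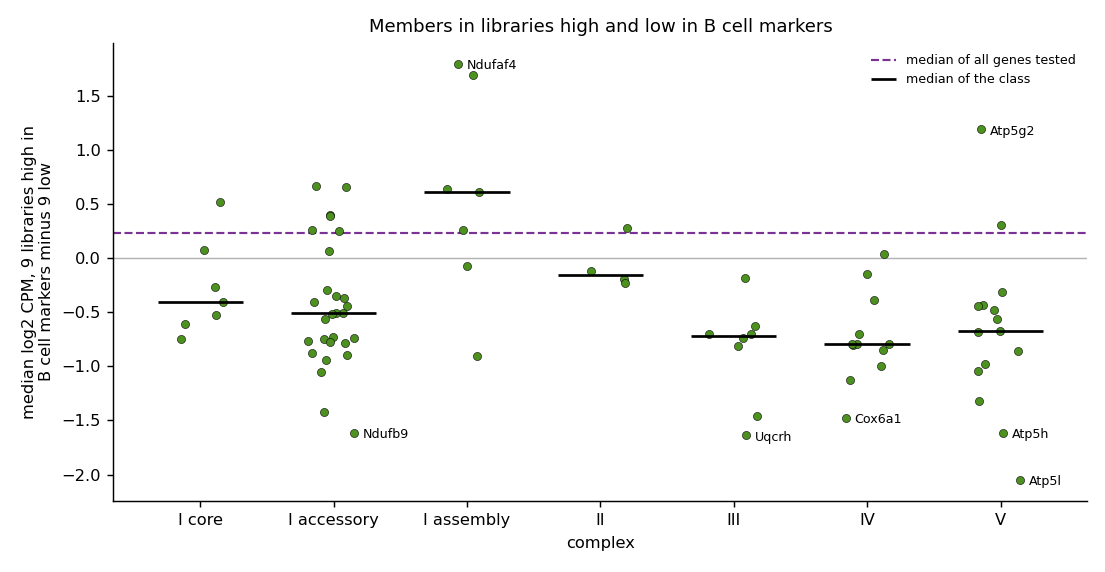
Median log2 CPM (TMM) of the 9 libraries high in B cell markers minus the median of the 9 low ones (vertical axis) for each tested gene by complex (horizontal axis), with medians of a complex as bars and the median of all genes as a dashed line. All 8 complex III genes and 13 of 15 complex V genes lie below 0, and assembly genes of complex I have a median of 0.61. With library totals the median of the set is 0.79, above 0.

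With TMM, 21 of the 86 members were above 0 (56.7% of all genes), among them 5 of 7 assembly genes and 7 of 28 accessory genes of complex I. Ndufaf4, an assembly factor of complex I, was at 3.41 to 9.11 CPM in the high libraries (median 6.89), against 0.854 to 4.43 CPM in the low ones (median 1.95). Atp5sl, known in human cells as a factor in complex I assembly, was at 2.52 to 23.4 CPM (median 11.9) and 0 to 0.934 CPM (median 0.519). Subunit c of ATP synthase is made from 3 genes whose mature proteins are identical, and their shares of the summed counts do not depend on scaling. Atp5g2 made up 8.69% to 25.3% of them where B cell markers were high and 1.48% to 9.18% where they were low, while Atp5g3 held 55.4% to 74.6% and 73.9% to 89.4%. Atp5g1 held 16.7% to 24.6% and 9.14% to 18.9%. Counts of these 3 genes may be uncertain where their similar sequences share reads.

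No other gene of the pathway was called by edgeR in D45/KO against WT/KO, where 0.172% of all genes were. The lists held 35 tested electron carriers and assembly genes (22 above 0, median log2 fold change 0.06), 16 enzymes of the citric acid cycle (13 above 0, median 0.22) and 15 regulators of mitochondrial biogenesis (4 above 0, median -0.28), and at an unadjusted p under 0.05 they had 2 genes in all. Coq3, of ubiquinone synthesis, averaged 5.76 ± 1.39 CPM in D45/KO, against 3.26 ± 1.58 in WT/KO (0.82 ± 0.52), and Sdhaf1, an assembly factor for complex II, 2.01 ± 0.908 CPM in D45/KO, against 3.26 ± 2.02 in WT/KO (-0.70 ± 1.08). Ogdh, of the oxoglutarate dehydrogenase complex, averaged 193 ± 38.2 CPM in D45/KO, against 269.8 ± 127 in WT/KO (-0.48 ± 0.39). Nrf1 averaged 101 ± 31.6 CPM in D45/KO, against 79.2 ± 49.1 in WT/KO (0.34 ± 0.39), and Ppargc1b, a coactivator of mitochondrial genes, 0.732 ± 0.496 CPM in D45/KO, against 3.05 ± 2.69 in WT/KO (-2.06 ± 1.21). Atpif1, the inhibitor of ATP hydrolysis by ATP synthase, was at 350.3, 282, 532 and 641 CPM in D45/KO, against 209.8, 215, 139.5, 817 and 939 CPM in WT/KO, and both genotypes were lower in the libraries high in B cell markers.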

How the data were processed

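Counts per gene were deposited by the authors as raw whole numbers, and mm9, HISAT2, featureCounts and limma appear, without versions or roles, per the submitters' processing notes. Annotation and strand setting are not given in the sources used here. A second deposited table, of the authors' processed values, was not used. Groups are the labelled genotypes. Genes were tested with edgeR 4.0.16 (R 4.3.3), on those kept by filterByExpr, with TMM, a quasi-likelihood fit to all 18 libraries by genotype and Benjamini-Hochberg adjustment at 0.05. DESeq2 1.42.0 and limma-voom (limma 3.58.1) were alternatives. Log2 CPM used a prior count of 2. The SE is the absolute log2 fold change over the square root of F. CPM per kb used the median transcript length in GRCm38. The scripts were tested on simulated data. Members and lists were chosen with earlier results of these data known. The text names, per comparison, members at an unadjusted p under 0.05, the highest and lowest of each complex in both D45/KO comparisons with WT, the most abundant of each complex, complex II, tissue isoforms and the extremes of other lists, some by level only. Single-gene results of 2 genes that this rule names are not reported here. Libraries ran from 9360455 to 56323588 counts. Intervals cover counting error only, and p-values measure the spread between these libraries. Replicate numbers are shared between genotypes. Deviations of same-numbered libraries correlated at 0.71, 0.35 and 0.19 in D45/D45 against WT/WT and at 0.71, 0.22 and 0.12 in WT/D45 against WT/WT, above 0.1 in every pair, and not in every pair of the other 4 comparisons.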

Additional observations from a re-analysis of the deposited data

Results flagged for a closer look

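Within a genotype, 6 of 94 groups checked had 1 library far from the others by Dixon's criterion, where chance alone gives about 1 in 20 groups. Ndufaf1 was at 1.97 CPM in WT/KO replicate 3, with the nearest WT/KO library at 7.78 CPM. Sdhb was at 16.5 CPM in the same library, with the nearest at 35.8 CPM. Cox6b2 was at 449.6 CPM in D45/KO replicate 4, the D45/KO library low in B cell markers, with the nearest at 279 CPM, and the summed CPM of the tissue isoforms of complex IV was at 449.7 there with the nearest at 279 CPM. Cox6a2 was at 1.96 CPM in D45/KO replicate 2, with the nearest at 0.261 CPM, and at 2.58 CPM in WT/KO replicate 2, with the nearest at 0.786 CPM. WT/KO replicate 3 is the shallowest library, at 9360455 counts.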

How the results depend on the processing

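Under the alternatives chosen with the design (other scaling, tools, filters, covariates, left-out libraries), edgeR's count of 0 members called held in all 6 comparisons and in the test for any difference, apart from these. The share of all genes called in the same fit stands in brackets. With the B cell marker level as covariate it was 2 of 86 in D45/KO against WT/KO (2.68%), 1 in D45/KO against WT/WT (4.18%) and 1 for any difference (2.9%), shares of members below those of all genes. With the mouse identifier as covariate it was 1 in D45/KO against WT/WT (1.03%), and with DESeq2 1 for any difference (2.45%). Other alternatives were chosen after seeing the data. The 9 libraries high in B cell markers gave 2 of 87 in D45/KO against WT/KO (7.55%). The 9 low ones gave, of 84, 1 in D45/KO against WT/WT (2.35%), 2 in D45/D45 against WT/WT (1.36%) and 2 for any difference (1.8%). Library totals gave 1 of 86 in D45/KO against WT/WT (0.798%) and 1 for any difference (0.477%). Leaving out each library in turn gave members' medians of 0.07 to 0.33 in D45/KO against WT/KO, -0.14 to 0.03 in D45/KO against WT/WT, -0.37 to -0.08 in D45/KO against D45/D45, 0.07 to 0.34 in D45/D45, -0.07 to 0.15 in WT/D45 and -0.47 to -0.11 in WT/KO against WT/WT.

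Of 45 single-gene results, 13 turned sign under some alternative (32 of 939 values), and the cause was not tested. In D45/KO against WT/KO, Ndufb9 was 0.061 with the mouse identifier and 0.56 in the 9 high libraries. Uqcrh was 0.18 with the identifier, 0.63 in the high libraries, 0.064 with library totals and 0.21 without WT/KO replicate 4. Cox6c was -0.050 with DESeq2 size factors, -0.050 with DESeq2, -0.16 in the low libraries and -0.20 to 0.27 with 1 library left out. Ndufaf5 was 0.77 and Atp5g2 0.14 in the low libraries, and Ogdh 0.028 in the high ones. In D45/KO against WT/WT, the high libraries gave 0.036 for Ndufs7, 0.16 for Ndufa7, 0.10 for Uqcrh, 0.18 for Cox6c and 0.21 for Atp5l, and library totals gave 0.30 for Ndufs7. Cox6b2 in D45/KO against D45/D45 was 0.43 with the B cell covariate, 0.32 with the identifier, 0.033 in the low and 0.91 in the high libraries, 0.47 with library totals and -0.56 to 0.056 with 1 library left out. With the replicate block, which pairs libraries by number, 0 members were called in every comparison. In that fit Ndufb9 was 0.22 and Uqcrh 0.26 in D45/KO against WT/KO, and Cox6b2 was -0.33 in WT/KO against WT/WT.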
